A study of Rattus norvegicus with 6 samples.

Results

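The PP2C-type protein phosphatases are described here through 8 genes, Ppm1a, Ppm1b, Ppm1d, Ppm1f, Ppm1g, Ppm1h, Ppm1k and Ppm1l. They are 8 of 14217 genes with a named probe set on the array, and all probe sets listed with 1 of their symbols were taken, 18 of the 31042 that are not controls. Each probe set combines short probes designed on 1 transcript sequence. The genes were selected on the signals of this same contrast, in which Ppm1b 1398807_at was among the probe sets with lower signal in COUP-TFII depleted cells. The differences between the groups are therefore given for all 18 as a description, with no test.

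The cells were the 832/13 INS-1 line, a rat insulinoma line that makes insulin and serves as a model of the pancreatic β-cell. There were 6 arrays. COUP-TFII siRNA had been electroporated into the cells of 3, and scrambled siRNA into the control cells of the other 3. All cells were used between passages 7 and 25, grown in medium with 11 mM glucose, and cultured for 48 h after electroporation. The labels call the 3 samples of each group biological replicates without saying whether each had its own electroporation, so the spread given here is the spread between these samples. As a single tumor line in culture, these cells stand in for β-cells without the other cells of an islet.

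PP2C-type phosphatases remove phosphate from serine and threonine and need magnesium or manganese at the active site. Unlike PP1 and PP2A, which pair a few catalytic subunits with many regulatory ones, they mostly act as single chains, and a different gene serves each task. Ppm1a and Ppm1b quiet stress and inflammatory kinases, Ppm1d ends the p53 response, Ppm1f acts on calmodulin-dependent kinases and on PAK, Ppm1k switches on the breakdown of branched-chain amino acids in mitochondria, and Ppm1l works at the endoplasmic reticulum. In β-cells such kinases bear on survival under cytokines and on the sensing of nutrients.

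Signals are MAS5 intensities as deposited, and log2 fold changes compare COUP-TFII siRNA with scrambled siRNA after signals under 1 were set to 1. Transcripts of Bacillus are foreign to rat cells, and their 27 control probe sets read at most 20.7. Dim is used here for means of 20.7 or less in both groups, which held for 3 of the 18 probe sets and for 37.5% of all. At its brightest probe set, 1389554_at, the siRNA target Nr2f2 read 47.0, 27.7 and 23.8 after COUP-TFII siRNA against 182, 235 and 179 after scrambled siRNA. Its log2 fold change was -2.65 (adjusted p = 0.404 by limma, and 0.0185 with the replicate number as a block). Of the other Nr2f2 probe sets, 1370063_at was at -1.71 (standard error 0.32), with groups that did not overlap (adjusted p = 0.316 by limma with the block). The dim 1395863_at was at -0.37 (standard error 0.56), with overlapping groups. All 12 measured β-cell markers were above the dim range, as were 2 of 5 markers of other islet cells, 1 of 10 of acinar and duct cells and 2 of 9 of fibroblasts, endothelium and blood cells. The summed signal of the 5 markers of other islet cells, most of it from Gcg, ran from 848 to 8112 in COUP-TFII depleted cells and from 429 to 6369 in control cells, and its part in the results below was not tested. In bulk RNA of this kind, fewer cells that express a gene and less of its RNA per cell cannot be told apart. After adjustment by limma without pairing, 0% of all probe sets passed 0.05. At an unadjusted p up to 0.05 there were 717 (2.31%), of which 1.34% of all were lower and 0.973% higher. The replicate block let 5 pass after adjustment (0.0161% of all) and the methods' t-test 1 (0.00322%), and 0 of these belonged to the 8 genes.

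Ppm1b encodes PP2Cβ, a phosphatase known to act on the kinases TAK1, IKKβ and TBK1 and on RIPK3, the kinase that triggers necroptosis. Its gene lies on chromosome 6 of the rat assembly GRCr8 from 15399559 to 15460301, and 3 curated transcripts are listed for it. The 250 bases before the transcription start site that RefSeq gives at 15459460 (minus strand, chr6:15459461-15459710) are printed because the depleted factor, COUP-TFII, is a nuclear receptor that recognizes the core hexamer AGGTCA. The capitals mark the match to that hexamer on the opposite strand, TGACCT.
Ppm1b: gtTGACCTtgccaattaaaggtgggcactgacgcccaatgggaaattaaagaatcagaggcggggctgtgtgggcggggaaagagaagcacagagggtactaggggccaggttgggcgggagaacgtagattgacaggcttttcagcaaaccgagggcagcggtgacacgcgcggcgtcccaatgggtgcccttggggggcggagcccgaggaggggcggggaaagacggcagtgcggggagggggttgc
The match begins 248 bases before the start site, at the outer end of the window, and it is the 1 match on either strand. Windows of the same length were at hand for 7 of the 8 genes, and Ppm1b was the 1 gene of these with the hexamer. Of 33469 windows over all rat genes 14.1% held it. The hexamer repeated in the same direction with 1 base between, searched on both strands, was in 0.0508% of all windows and in none of the 7. The window lies within the annotated span of the gene, which extends farther upstream. A match of letters is a description and not a binding site.

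The 3 probe sets of Ppm1b did not move alike. Probe set 1398807_at, designed on the curated transcript NM_033096, read 455, 354 and 423 after COUP-TFII siRNA (replicates 1, 2 and 3) and 653, 605 and 663 after scrambled siRNA. Every COUP-TFII depleted array was below every control array. The mean signals were 411 ± 51.3 (SD, n = 3) and 640 ± 30.9 (SD, n = 3), and the mean log2 signals differed by -0.65 (standard error 0.14), which is -36.1% between geometric means. By replicate number the log2 differences were -0.52, -0.77 and -0.65. Of all probe sets 3.45% had groups that part in this direction and 3.24% in the opposite one. Of the 18, 1398807_at was the 1 of the first kind and 0 were of the second. Since this probe set led to the choice of the gene, nothing is read from that count.

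Probe set 1371136_at, designed on the sequence AJ271834 of the same gene, read 391, 332 and 394 after COUP-TFII siRNA against 309, 338 and 378 after scrambled siRNA. The groups overlapped, with the highest and the second lowest signals both on COUP-TFII depleted arrays. The log2 fold change was 0.12 (standard error 0.15), and the signal was higher in 2 of 3 same-numbered pairs. The third probe set, 1378124_at on the transcript fragment AI501282, read 56.8, 32.0 and 35.7 against 70.0, 47.4 and 76.0. It was lower in 3 of 3 pairs with overlapping groups, at a log2 fold change of -0.65 (standard error 0.34). On the scale log2(signal + 16) this was -0.49. All 3 probe sets were above the dim range on every array.

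**Figure D1:**
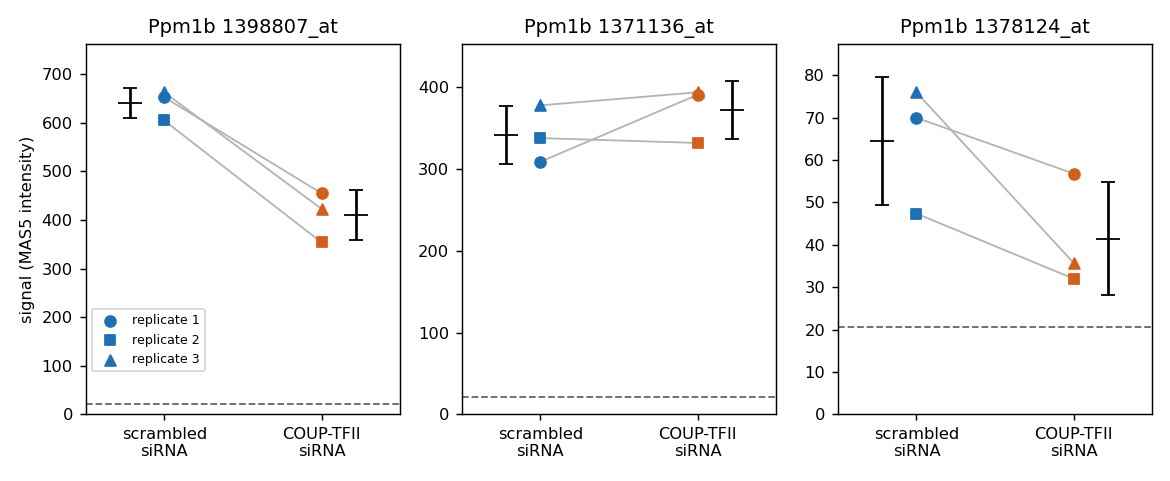
The 3 Ppm1b probe sets on each array, as MAS5 intensity on linear axes that begin at 0, with scrambled siRNA left and COUP-TFII siRNA right. Each point is an array, gray lines connect equal replicate numbers, bars give mean ± SD (n = 3) and the dashed line marks 20.7, the top Bacillus signal. The groups part at 1398807_at, overlap at 1378124_at, and at 1371136_at the mean is 372 after COUP-TFII siRNA against 342.

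The difference between the 2 bright probe sets can be read within each array, where the amount of RNA and the scaling of the array cancel. Degradation of RNA need not cancel. Over the arrays, the signal ratio of 3' to 5' control probe sets ran from 2.64 to 3.39 for actin and from 0.974 to 1.09 for GAPDH. The part of degradation in the difference was not tested. The log2 ratio of 1398807_at over 1371136_at was 0.22, 0.10 and 0.10 on the COUP-TFII depleted arrays and 1.08, 0.84 and 0.81 on the control arrays. The groups did not overlap. The mean log2 ratio was 0.14 ± 0.070 (SD, n = 3) against 0.91 ± 0.15 (SD, n = 3), a difference of -0.77 that ran from -0.82 to -0.69 with 1 array left out. The upper term of the ratio is the probe set on which the gene was selected, so the lower ratio restates that choice and is a description. It does not say which probe set follows the Ppm1b protein. Which of the 3 curated transcripts each probe set reads was not analysed here.

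**Figure D2:**
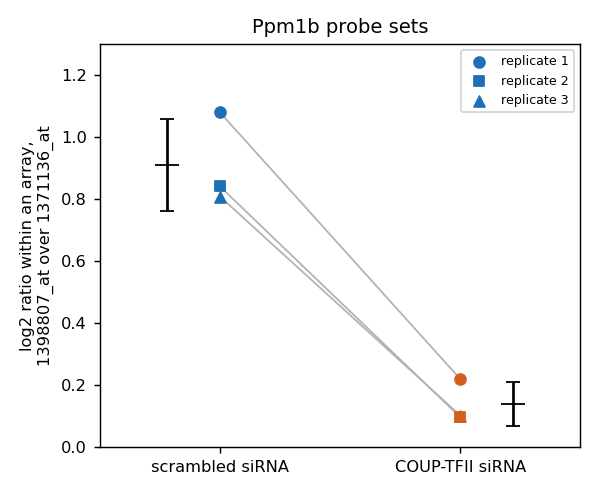
log2 ratio of the Ppm1b probe sets 1398807_at over 1371136_at within each array. Each point is an array, gray lines connect equal replicate numbers and bars give mean ± SD (n = 3). All 3 ratios after COUP-TFII siRNA, the highest of them 0.22, lie below all 3 after scrambled siRNA, the lowest of them 0.81.

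With 1 array left out, the log2 fold change of 1398807_at ran from -0.72 to -0.54, weakest without COUP-TFII siRNA replicate 2, and that of 1371136_at from 0.054 to 0.21. That of 1378124_at ran from -0.90 without COUP-TFII siRNA replicate 1 to -0.49 without COUP-TFII siRNA replicate 2. Quantile normalization gave -0.63 for 1398807_at, 0.15 for 1371136_at and -0.66 for 1378124_at. No sign changed under any of these settings.

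Ppm1a, for PP2Cα, is the closest relative of Ppm1b and is known to act on p38, AMPK and Smad proteins. Its single probe set 1368859_at read 101, 132 and 113 after COUP-TFII siRNA and 111, 120 and 105 after scrambled siRNA. The groups overlapped, and the log2 fold change was 0.038 (standard error 0.19). With 1 array left out it ran from -0.065 to 0.13, so that its sign rested on the choice of arrays. Ppm1g, for the nuclear phosphatase PP2Cγ that acts in RNA splicing and transcription elongation, had the brightest probe set of the 18. Probe set 1388514_at read 1110, 1394 and 1002 against 1089, 1325 and 958, and the difference was 0.055 on the log2 scale (standard error 0.18). Its signal was highest on the replicate 2 array of each group, and the differences within the same-numbered pairs were 0.03, 0.07 and 0.06 on the log2 scale. The pairs thus differed far less from each other than the arrays of 1 group did.

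Ppm1d, for WIP1, is induced by p53 and then removes phosphate from p53 and its upstream kinases. Probe set 1374884_at read 162, 234 and 215 after COUP-TFII siRNA against 239, 234 and 211 after scrambled siRNA. The groups overlapped, and COUP-TFII siRNA replicate 1 alone lay apart from the other 5 arrays. The log2 fold change was -0.18 (standard error 0.18), and -0.021 without that array.

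Ppm1f, known as POPX2 or CaM kinase phosphatase, was read by 3 probe sets that differ in brightness. The brightest, 1398332_at, read 71.0, 130 and 89.4 against 91.9, 120 and 88.5, with a log2 fold change of -0.082 (standard error 0.27). Probe set 1370552_at read 14.1, 15.3 and 10.8 against 33.1, 11.7 and 27.8. Here the control arrays spread across the highest Bacillus control signal of 20.7 and the COUP-TFII depleted arrays all lay below it, and the log2 fold change was -0.74 (standard error 0.57). Probe set 1396266_at was dim and differed by -0.91 on the log2 scale (standard error 0.86), which became -0.066 without COUP-TFII siRNA replicate 3. The larger differences of Ppm1f thus came from the probe sets near or below the dim range, where the standard errors were also larger.

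Ppm1l, or PP2Cε, is anchored in the endoplasmic reticulum and acts on the ceramide transfer protein CERT and on the kinase ASK1. Its probe set 1376584_at read 135, 155 and 240 after COUP-TFII siRNA against 202, 185 and 273 after scrambled siRNA. The groups overlapped through COUP-TFII siRNA replicate 3, at 240, and replicate 3 was the brightest array of each group. Within same-numbered pairs the signal was lower in 3 of 3, by -0.58, -0.25 and -0.18 on the log2 scale. The log2 fold change was -0.34 (standard error 0.25), and it ran from -0.58 without COUP-TFII siRNA replicate 3 to -0.17 without COUP-TFII siRNA replicate 1. Probe set 1376771_at of the same gene read 150, 133 and 213 against 177, 125 and 255. It was lower in 2 of 3 pairs and differed by -0.13 on the log2 scale (standard error 0.29). The third, 1375606_at, was dim.

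Ppm1k, the mitochondrial phosphatase that activates the branched-chain ketoacid dehydrogenase, was the 1 gene with several probe sets that were all higher by mean. Probe set 1388778_at read 58.3, 60.3 and 67.0 against 51.6, 45.5 and 65.5. The groups overlapped through control replicate 3, the signal was higher in 3 of 3 pairs, and the log2 fold change was 0.21 (standard error 0.27). The other probe sets were 1394939_at at 0.19 (standard error 0.49) and the dim 1392921_at at 0.57 (standard error 1.02). For each of the 3 the difference was smaller than its standard error. Ppm1h, a phosphatase of Rab proteins and of the cell cycle inhibitor p27, had 3 probe sets, all lower by mean with log2 fold changes from -0.22 to -0.042. The brightest, 1376060_at, read 101, 111 and 92.6 against 88.9, 135 and 112, and its groups overlapped. Probe set 1390954_at read 36.3, 25.6 and 48.7 against 44.9, 41.3 and 38.3, and 1393712_at read 36.6, 51.2 and 34.1 against 30.3, 56.2 and 40.9. In both the groups overlapped, and for each of the 3 the signal was lower in 2 of 3 pairs.

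Of the 18 probe sets 12 were lower and 6 higher by mean after COUP-TFII siRNA, and 50.4% of all probe sets were lower. Probe sets of 1 gene are not independent, and the 18 include the selected 1398807_at. By gene, all probe sets of Ppm1d, Ppm1f, Ppm1h and Ppm1l were lower by mean. Those of Ppm1a, Ppm1g and Ppm1k were higher, and those of Ppm1b went both ways. The median log2 fold change of the 18 was -0.13, and that of all probe sets -0.0031. Signals were lower in 3 of 3 pairs for 3 probe sets, 2 of Ppm1b and 1 of Ppm1l, and 14.0% of all probe sets were. They were higher in 3 of 3 pairs for 2, those of Ppm1g and Ppm1k, against 13.4% of all. Of the 15 probe sets that were not dim, Ppm1b 1398807_at had the smallest standard error, 0.14, and Ppm1f 1370552_at the largest, 0.57. With 1 array left out, 9 to 13 of the 18 were lower by mean, and 9 of the 18 kept their sign whichever array was left out.

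**Figure D3:**
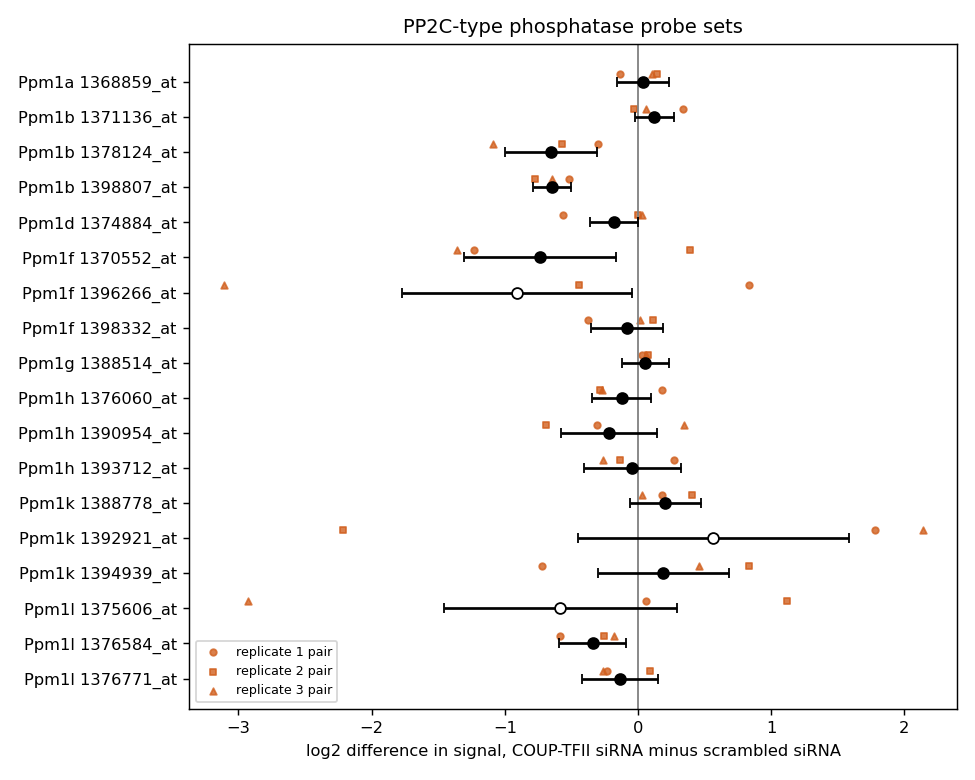
log2 difference in signal, COUP-TFII siRNA minus scrambled siRNA, of the 18 probe sets of PP2C-type phosphatases. Black points with bars are the log2 fold change ± standard error from limma (open for the 3 dim probe sets), and colored symbols above them are the differences of the 3 same-numbered pairs. The bar and all 3 pairs lie below 0 for Ppm1b 1398807_at and 1378124_at, both at -0.65, and for Ppm1l 1376584_at, at -0.34.

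Likeness to Ppm1b 1398807_at was measured by Pearson's r of log2 signals over the 6 arrays, among 12178 other probe sets with 1 symbol and a signal at or above the median. The highest values were 0.989 for S100a1, a calcium-binding protein, and 0.987 for Vps4b, an ATPase of the ESCRT machinery. Next came 0.984 for Acaca, the acetyl-CoA carboxylase of fatty acid synthesis, 0.975 for Sh2b1, an adaptor of receptor tyrosine kinases, and 0.954 for C2cd2. Their log2 fold changes, from -0.61 for S100a1 to -0.14 for Sh2b1, were all negative, which follows from the choice by likeness. Within the 18, r to 1398807_at was 0.860 for Ppm1b 1378124_at and -0.243 for Ppm1b 1371136_at, and it ran from -0.464 to 0.618 for the other genes. These 6 arrays share the group difference, so r describes the pattern and was not tested.

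Other genes with a PP2C-type domain were measured for 9 of 12 listed symbols, among them the pyruvate dehydrogenase phosphatases Pdp1 and Pdp2, the mitochondrial Pptc7, the Akt phosphatase Phlpp1, Ilkap, and Tab1, a relative without catalysis that activates TAK1. By limma none passed an adjusted p of 0.05 with or without the replicate block, and none passed an unadjusted p of 0.05 in the unpaired comparison. Of the 9 genes 6 were above the dim range. At the brightest probe set of each, their log2 fold changes ran from -0.20 for Pptc7 (standard error 0.18) to 0.18 for Pdp2 (standard error 0.21). Pdp1 was at -0.0062, Ilkap at 0.040, Tab1 at 0.021 and Phlpp1 at -0.065. The other probe sets of Pptc7 were at 0.096 (1378246_at) and -0.042 (1379953_at). Another probe set of Pdp2, 1380045_at, was at 0.36 (standard error 0.32). Pdp2 1370509_at read 83.6, 112 and 116 after COUP-TFII siRNA against 90.5, 90.2 and 93.1 after scrambled siRNA. The dim genes were Ppm1j, Ppm1m and Ppm1n. Among 11 catalytic subunits of the PP1, PP2A and calcineurin type, none passed either threshold in the unpaired comparison, and the median log2 fold change was 0.051. Ppp3cb, a catalytic subunit of calcineurin, was lower in 3 of 3 pairs at -0.22 (standard error 0.16), and Ppp1ca, of PP1, was higher in 3 of 3 at 0.15 (standard error 0.15).

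Genes around the kinases and partners on which these phosphatases act were followed in 8 further lists. Over all 10 lists, with the relatives above included, 135 of 156 listed genes had a named probe set, and each gene was read at its brightest. None passed an adjusted p of 0.05 by limma, with or without the replicate block. At an unadjusted p up to 0.05 there were 3 in the unpaired comparison, or 2.22%, against 2.31% of all probe sets, and 14 of the 135 with the block, against 6.23% of all. These sets are unlike, since 124 of the 135 genes were above the dim range while 37.5% of all probe sets were dim. In the unpaired comparison the 3 were Sesn2, which was lower, and Mapk13 and Bmpr2, which were higher, the last 2 named after their values were seen. The block added 11 genes, each with the same direction in 3 of 3 pairs. Ppp3cb, Tab3, Mapk14, Prkag2, Cab39l, Pak2, Cert1 and Tgfbr1 were lower, and Ccng1, Camk1 and Cdkn1b were higher, with adjusted p values from 0.692 to 0.797 by limma with the block.

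Sesn2, for sestrin 2, a stress-induced target of p53 that restrains mTORC1, read 453, 359 and 427 after COUP-TFII siRNA against 545, 629 and 551 after scrambled siRNA. The groups did not overlap and differed by -0.48 on the log2 scale, with a standard error of 0.15 and an adjusted p of 1 by limma, or 0.678 with the block. Mapk13, for p38δ, had a mean of 44.9 ± 2.90 (SD, n = 3) against 19.3 ± 13.7 (SD, n = 3), so its control mean lay in the dim range. Its log2 fold change was 1.44, and 0.85 on the scale log2(signal + 16). The Bmpr2 probe set was dim in both groups, with 19.3 ± 10.3 (SD, n = 3) against 3.73 ± 2.62 (SD, n = 3). In the p53 list Ccng1, for cyclin G1, was higher in 3 of 3 pairs at 0.25 (standard error 0.17). The 15 genes of that list, the setting in which Ppm1d works, lay at a median of 0.0040 on the log2 scale.

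Among 18 genes around TAK1, IKK and necroptosis, of which only some are known substrates of Ppm1b, the median log2 fold change was -0.042. Ripk3 was dim, with means of 9.45 after COUP-TFII siRNA and 12.0 after scrambled siRNA, and the listed Mlkl and Ikbkg had no named probe set. Tbk1, a kinase of innate immune signaling, read 422, 392 and 384 against 312, 377 and 378. Its groups did not overlap, and the log2 fold change was 0.17 (standard error 0.14). Tab3, an adaptor of TAK1, read 135, 52.0 and 143 against 176, 82.0 and 196. Both replicate 2 arrays were low for Tab3, and within pairs the signal was lower in 3 of 3, by -0.50 on average on the log2 scale (standard error 0.45, or 0.13 with the block). Leaving out COUP-TFII siRNA replicate 2 gave -0.022, and leaving out scrambled siRNA replicate 2 gave -0.89. The same replicate pattern was seen for Cert1, the ceramide transfer protein on which Ppm1l acts, at 995, 336 and 749 against 1095, 420 and 995. Its pairs differed by -0.14, -0.32 and -0.41 on the log2 scale, with a mean of -0.29 (standard error 0.45, and 0.088 with the block; adjusted p = 0.771 by limma with the block). Without COUP-TFII siRNA replicate 2, which leaves the low control array without its partner, the value was 0.16.

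The 14 stress MAP kinase genes lay at a median of 0.052 on the log2 scale. Mapk14, for the p38α kinase that Ppm1a and Ppm1d act on, read 533, 492 and 428 against 659, 615 and 542, with groups that do not overlap. They differed by -0.32 on the log2 scale, with a standard error of 0.15 and an adjusted p of 1 by limma, or 0.692 with the block. Map3k4, an upstream kinase, was at -0.26 (standard error 0.18) with overlapping groups. Of the 14 genes for AMPK subunits and their upstream kinases 10 were lower by mean, at a median of -0.029. Prkag2, a regulatory subunit of AMPK, read 81.8, 103 and 54.9 against 93.9, 124 and 111, and Cab39l, a partner of the upstream kinase LKB1, read 81.2, 73.1 and 65.2 against 113, 77.4 and 107. Each was lower in 3 of 3 pairs with overlapping groups, at -0.49 (standard error 0.27) and -0.42 (standard error 0.24).

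The 12 genes for CaM kinases, PAKs and their exchange factors, the setting in which Ppm1f works, had a median of -0.082, and 9 of them were lower by mean. The kinase Pak2 read 674, 825 and 863 against 883, 909 and 961, with groups that did not overlap. Arhgef7, for the PAK partner β-PIX, read 65.0, 71.6 and 70.1 against 85.3, 96.7 and 75.8, and Pak4 was the third gene of the list whose groups did not overlap. Their log2 fold changes were -0.23 (standard error 0.14), -0.31 (standard error 0.22) and -0.14 (standard error 0.12). Camk1 was higher in 3 of 3 pairs at 0.23 (standard error 0.16). None of these passed the test, and groups that part downward were found for 3.45% of all probe sets.

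The 18 genes of branched-chain amino acid breakdown, the path that Ppm1k opens, had a median log2 fold change of 0.058, with 11 higher and 7 lower by mean. Dbt, a subunit of the dehydrogenase, read 111, 109 and 129 against 82.8, 95.6 and 117, at 0.25 (standard error 0.21), and Pcca, of propionyl-CoA carboxylase, was at 0.16 (standard error 0.24). Each was higher in 3 of 3 pairs, and neither passed the test. The 12 genes for Smads, Axins and receptors, Tgfbr1 and Bmpr2 among them, had a median of -0.076. Smad5 was at -0.18 (standard error 0.13) and Axin2 at 0.26 (standard error 0.27). The 13 substrates and partners of Ppm1g, Ppm1h and Ppm1l had a median of 0.044, and Cdkn1b, for p27, read 1643, 2138 and 1274 against 1334, 1591 and 1198, higher in 3 of 3 pairs at 0.27 (standard error 0.21).

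**Figure D4:**
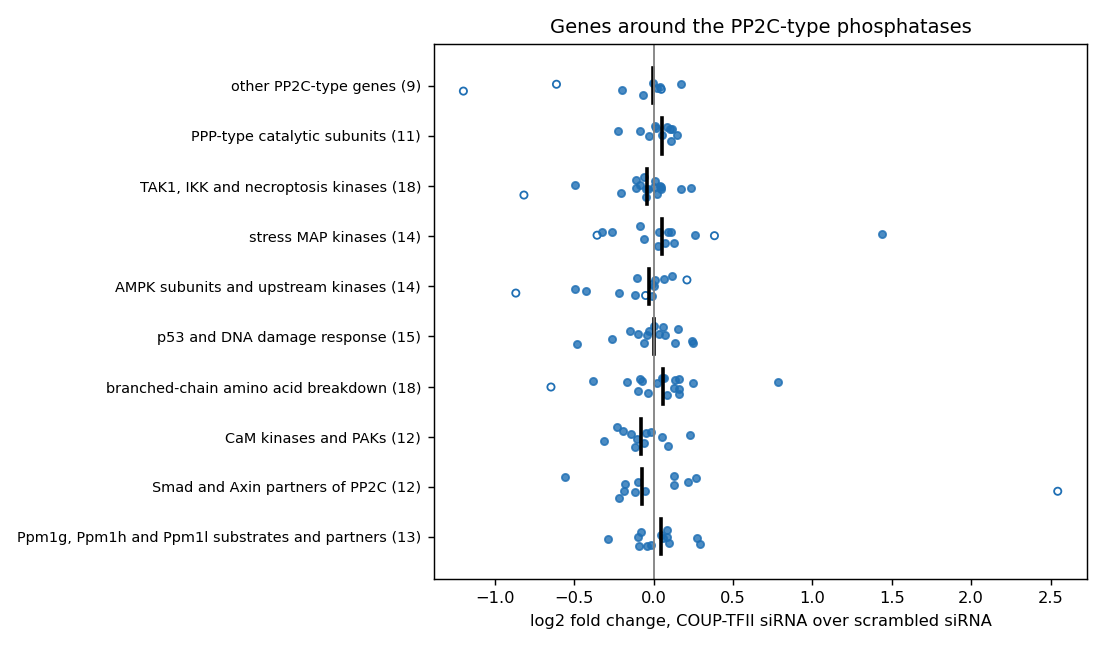
log2 fold change (horizontal axis, COUP-TFII depleted over control cells) of each measured gene, 1 probe set per gene, in 10 lists of genes around the PP2C-type phosphatases, with the number of genes in brackets. Filled points are above the dim range in at least 1 group, open points are dim, vertical scatter is for display only and black bars are list medians, which lie between -0.082 and 0.058.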

How the data were processed

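RNA of 6 samples was measured on Affymetrix rat expression arrays. The authors deposited 1 linear intensity per array for each of 31099 probe sets, made with MAS5 after subtraction of background. Their normalization used reference probes whose names, like the MAS5 version, are not given in the sources used here. Detection calls were not analysed here. The 57 control probe sets were left out. Symbols came from the platform annotation (1 symbol for 20826 probe sets, several for 436, none for 9780), updated through RefSeq gene IDs of GRCr8, which also gave promoter windows and positions. No gene was named from a probe set with several symbols.

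Signals under 1, which made up 1.85% to 5.49% per array, became 1 before log2 was taken. The contrast was fitted by lmFit and trended eBayes of limma 3.58.1 (R 4.3.3), two-sided, unpaired like the study's own t-test, and adjusted by Benjamini-Hochberg over 31042 probe sets. The number of arrays limits the precision. Both groups carry replicate numbers 1 to 3. Deviations from the group means correlated at 0.111, 0.231 and 0.163 within numbers 1, 2 and 3, against -0.146 to -0.0104 between numbers. Deviations within a group cancel by construction, so values between numbers fall as those within numbers rise. They are thus no separate support for pairs, and the labels state no pairing. Equal numbers were treated as paired arrays, and limma was also run with the number as a block. Further settings changed the test (the methods' t-test, untrended limma), the scale (quantiles, array medians, log2(signal + 16)), the probe sets (dim ones removed, those at or above the median signal, a median for each gene) or the arrays (1 left out).

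The members, lists and tests were chosen with earlier results of these data known. The text names all probe sets of the 8 genes, the relatives above the dim range, and from each list some of up to 3 genes with the lowest p at or above the median signal. Pak4, Mapk13, Bmpr2, Tgfbr1 and Ripk3 were named after their values were seen. Matches to promoter windows and likeness of pattern have no test. Figures were drawn with matplotlib 3.10.9.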

Additional observations from a re-analysis of the deposited data

How the results depend on the processing

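Of the log2 fold changes of the 18 PP2C-type probe sets, 9 turned their sign without 1 of the arrays. The block, the other tests and the filters leave these values as they are by construction, so they say nothing of their stability. The number of these probe sets with lower groups that do not overlap, 1 as reported, was 2 with median centring. It ran from 1 to 3 with 1 array left out, which by construction can only keep or raise it. The share of all probe sets under these settings was not counted, so nothing is read from these numbers. Over all probe sets 0 passed an adjusted p of 0.05, against 1 with the methods' t-test, the dim Srarp, and 5 with the replicate block. At an unadjusted p up to 0.05 the lower ones numbered 415, against 1089 with the replicate block, 174 without dim probe sets and 130 at or above the median signal, the last 2 over fewer probe sets. Leaving out 1 array gave 311 to 647, highest without COUP-TFII siRNA replicate 3. The higher ones numbered 302, against 844 with the replicate block, 472 with the methods' t-test, 516 without the trend, 85 without dim probe sets and 50 at or above the median signal, and from 256 to 428 with 1 array left out. Nr2f2 1389554_at kept its log2 fold change of -2.65 with the replicate block, where it passed at an adjusted p of 0.0185, and with 1 array left out it ran from -2.94 to -2.45. In the related lists 0 genes passed after adjustment under every alternative run. The 3 genes at an unadjusted p up to 0.05 became 14 with the replicate block, 1 at or above the median signal, and 1 to 4 with 1 array left out, fewest without scrambled siRNA replicate 1. After adjustment the block changed the call of Nr2f2 and of no gene of the lists. Signs also turned for 5 of the 28 named genes of the lists that were followed here, which leave out Pccb, Tgfbr1 and Ripk3. Pdp1 was at 0.0066 after quantile normalization and from -0.073 to 0.048 with 1 array left out. In the same way Ilkap ran from -0.0067 to 0.12, Tab1 from -0.077 to 0.16, Phlpp1 from -0.33 to 0.10 and Cert1 from -0.73 to 0.16, where leaving out 1 array also breaks its pair. The causes of these moves were not tested. A median for each gene has no p, so no calls were counted with it. Signals at or below the highest Bacillus signal limit what can be said of dim probe sets.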
